A study of Mus musculus with 9 samples.

Results

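Complement components and regulators were followed in glial ribosome-bound RNA of the mouse retina after crush of the optic nerve. The 9 genes were listed by name and not by a cut on measured values, though with earlier results of these data known. All 9 were found among the 14194 gene entries of the deposited table. They are the C1q chains C1qa, C1qb and C1qc, the proteases C1ra and C1s1, the central components C3 and C4b, and the regulators Serping1 and Cd59a. C1s1 stands in the table under the older symbol C1s and was matched by its Entrez ID, 50908. All 9 had passed the submitters' filter on raw values in both conditions.

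Complement is a cascade of plasma and tissue proteins that tags and lyses targets. In the classical pathway C1q binds a target and carries the serine proteases C1r and C1s, which cleave C4 and then, through the C2-containing convertase, C3. SERPING1, the C1 inhibitor, inactivates C1r and C1s, and CD59 blocks the last step, assembly of the membrane attack pore. In the mouse retina and brain C1q is made mainly by microglia, while astroglia and Müller glia are known sources of C4, C1s, SERPING1 and, when reactive, C3.

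The animals were Tam-induced Aldh1l1-cre/ERT2+; NuTRAP+ mice of unstated age, in which a Cre recombinase driven by the astroglial gene Aldh1l1 switches on tagged ribosomes, and this genotype is shared by both groups. Each library held the anti-GFP pull-down (Positive fraction) of 2 pooled retinae. ONC denotes 5 libraries of eyes taken 72 h after the nerve had been clamped for 3 s, and Control denotes 4 libraries of fellow eyes, which were untreated or had a sham procedure, the labels not saying which. Pools 914/92, 938/88, 976/978 and 981/982 have both eyes, and pool 913/986 has its ONC eye alone, its control eye being not analysed here.

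Values are on the log2 scale, and each gene is relative to its own control baseline, so 0 is a usual control level and 1 is a doubling. Neither an absolute level nor a library total can be read from them, so sequencing depth is unknown and the spread between libraries is the sole measure of precision. All 15 listed markers of Müller glia were measured, with a median ONC minus Control difference of 0.06. Single markers ran from -0.59 for Spc25 to 1.22 for Crym, and Aldh1l1 itself differed by 0.68 (limma, adjusted p = 0.165). An unadjusted p under 0.05 (limma) was reached by 4 of them, 3 higher and 1 lower. None passed after adjustment, though Crym did with the animal pool as a block (adjusted p = 0.0428). The absolute purity of the pull-down cannot be read from values without a level. Pool 914/92 stood apart. Its control eye had a median over 9 reactive glia genes of 1.01, while the other controls spanned -0.38 to 0.00. Its ONC eye had a microglia marker median of 0.24, against 0.86 to 1.92 in the other ONC libraries. Markers of retinal ganglion cells in that ONC eye, with a median of -0.99, lay among those of the other ONC libraries, from -1.24 to -0.70. Photoreceptor marker medians were lowest in this pool, at -0.64 in Control (other controls -0.003 to 0.18) and -1.19 in ONC (other ONC libraries -0.79 to 0.10). Müller glia marker medians were highest in it, at 0.23 in Control (others -0.47 to 0.02) and 0.50 in ONC (others -0.24 to 0.23). The part of RNA from other cells in the pool's member values was not tested. The values of the 9 members are therefore given with and without this pool.

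Promoters of 3 members are shown, C1qb, C1qc and C3. As described further on, the C1q chains lay near the microglia marker median of each library, as did Serping1 and C1ra. C3 lay further above it, by 1.97 to 2.82, in 4 of 5 crushed eyes. The windows are the 250 bases before the RefSeq start on GRCm38.p6, written 5′ to 3′ along the gene. For C1qb that start lies upstream of the gene end given further on. Capitals mark matches to any of 5 motifs searched on both strands.
C1qb, chr4:136886201-136886450, strand -: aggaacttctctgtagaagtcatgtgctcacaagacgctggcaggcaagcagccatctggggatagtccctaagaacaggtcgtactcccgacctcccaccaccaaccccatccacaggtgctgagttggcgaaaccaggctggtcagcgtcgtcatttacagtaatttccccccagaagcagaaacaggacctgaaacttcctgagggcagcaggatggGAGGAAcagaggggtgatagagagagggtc
C1qc, chr4:136892915-136893164, strand -: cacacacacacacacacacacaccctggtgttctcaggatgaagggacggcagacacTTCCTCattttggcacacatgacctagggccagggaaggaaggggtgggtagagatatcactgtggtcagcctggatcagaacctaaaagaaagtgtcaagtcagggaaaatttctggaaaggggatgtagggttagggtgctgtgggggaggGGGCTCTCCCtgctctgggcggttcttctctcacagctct
C3, chr17:57228137-57228386, strand -: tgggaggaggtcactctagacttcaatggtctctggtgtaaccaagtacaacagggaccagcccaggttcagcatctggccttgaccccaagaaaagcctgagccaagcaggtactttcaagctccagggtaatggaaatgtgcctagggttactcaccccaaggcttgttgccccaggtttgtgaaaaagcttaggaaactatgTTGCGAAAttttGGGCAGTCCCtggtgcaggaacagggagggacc
The motifs were TTCNNNGAA (STAT), GAAA, any 2 bases and GAAA (interferon response element), TTGCNNAA (C/EBP), GAGGAA (ETS and PU.1) and GGGA, any 3 bases and CCC (kappa B). The C1qb window has GAGGAA beginning 30 bases before the start, and the C1qc window has it on the other strand beginning 193 bases before the start. That motif is in 23.3% of all 32851 RefSeq windows of this length. The C3 window has TTGCNNAA 45 bases and, on the other strand, the kappa B motif 33 bases before the start, and C1qc has the latter 40 bases before its start. These motifs are in 9.56% and 4.77% of all windows. No 2 of the marked matches overlap. The table had windows for 6 of the 9 members, with no match in that of C1ra, TTGCNNAA in 1 of 2 windows of C1s1, and the interferon response element and GAGGAA in that of Cd59a. The interferon response element is in 2.98% of windows, and TTCNNNGAA, in 7.02% of all windows, was in none of the 6 genes' windows. C1qa, C4b and Serping1 have no sequence shown.

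C4b and Serping1 rose after crush in the unpaired test, and they were the members that passed it. With the paired eyes of a pool as a block neither passed (adjusted p = 0.104 and 0.106, limma). C4b, the fourth component that C1s cleaves, had a value of 0.42 ± 0.65 (SD, n = 4) in Control and 2.23 ± 0.44 (SD, n = 5) in ONC, a 3.52-fold higher level. Serping1 had 0.24 ± 0.46 (SD, n = 4) and 1.79 ± 0.50 (SD, n = 5), a 2.94-fold higher level. The other members did not pass. Values of the 3 C1q chains varied over a wide range between crushed eyes, and Cd59a had nearly the same value in both groups. Over all genes, 165 (1.16%) were called in either direction and 73 (0.514%) higher in ONC, against 2 of 9 members, both higher. All 9 members had a difference above 0, with a median of 1.62, against -0.000623 over all genes.

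**Figure D1:**
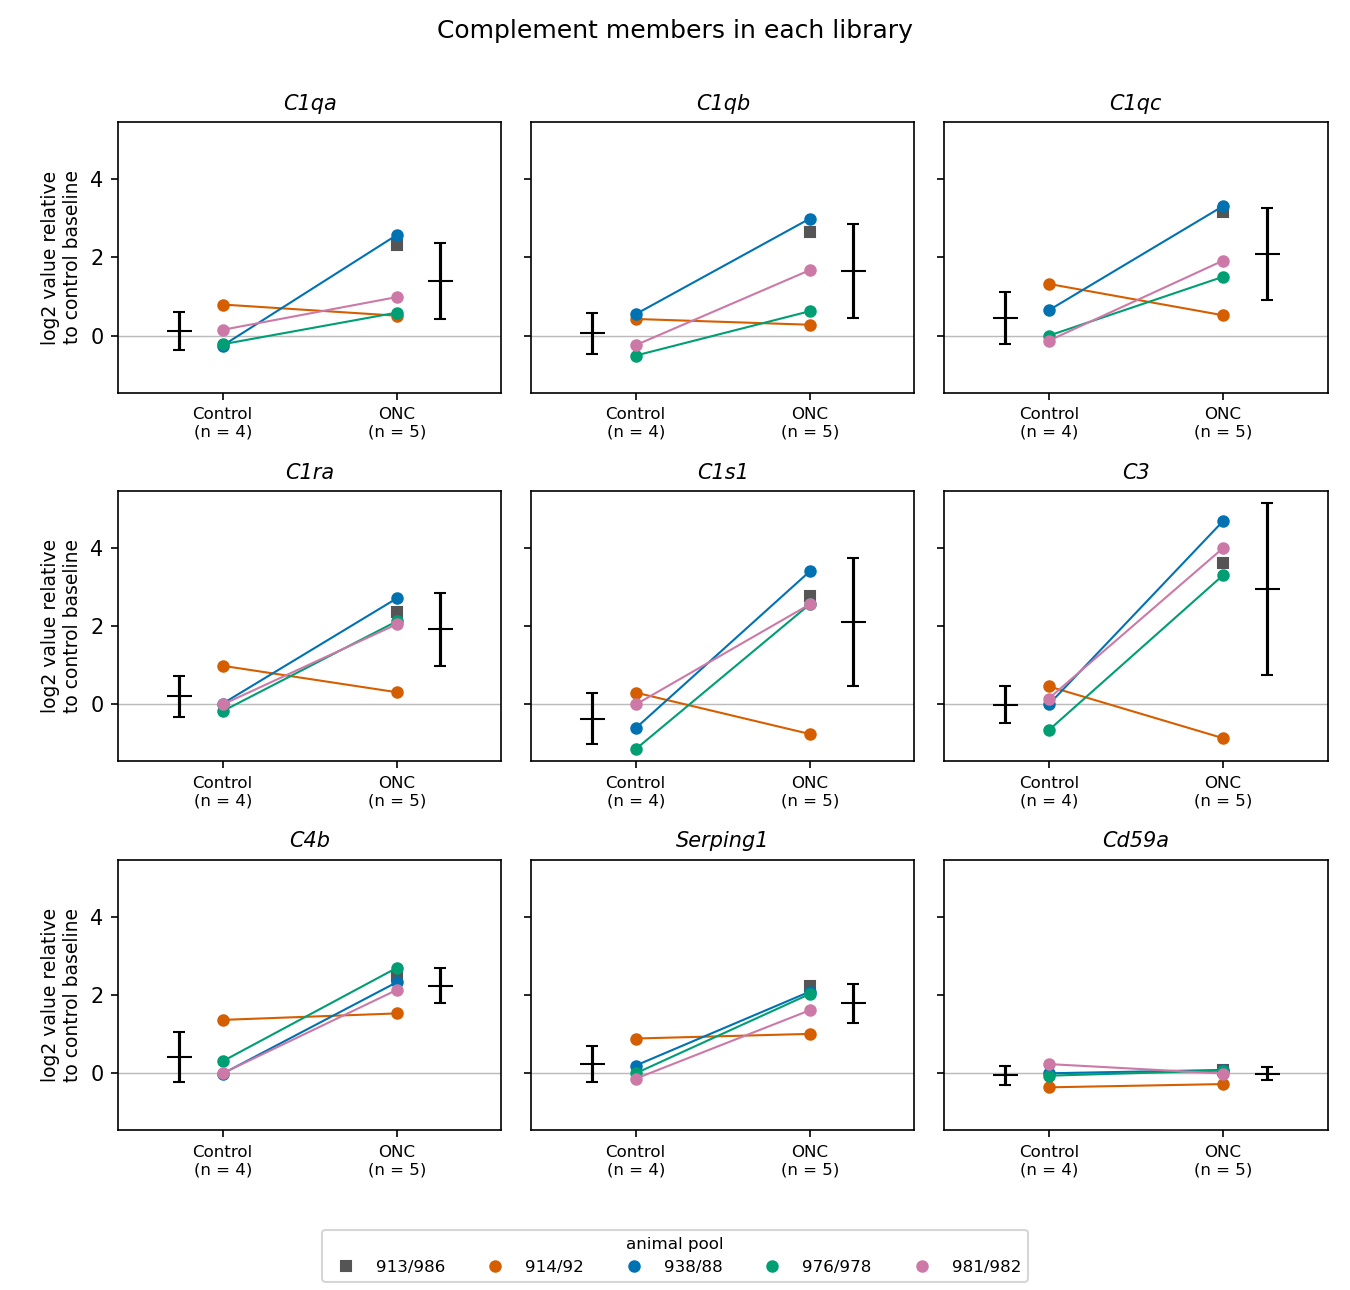
Each panel plots the log2 value, relative to the gene's control baseline, of 1 member in the 4 Control and 5 ONC libraries, with lines joining the eyes of a pool and black bars for the mean and SD of each group. C4b and Serping1 are the members whose groups do not overlap, and the line of pool 914/92 falls in 6 of the 9 panels.

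C4b lies on chromosome 17 of mm10 from 34728381 to 34743897, on the minus strand. Its values in Control were 1.36 in pool 914/92, -0.01 in 938/88, 0.31 in 976/978 and 0.00 in 981/982. In ONC they were 2.48 in 913/986, 1.53 in 914/92, 2.33 in 938/88, 2.69 in 976/978 and 2.13 in 981/982. Every ONC library lay above every Control library, which held for 3.39% of all genes in this direction. The nearest values, 1.36 and 1.53, were both of pool 914/92. The difference was 1.82 ± 0.33 (SE), with an adjusted p = 0.0400 (limma, Benjamini-Hochberg over 14194 genes, two-sided). The exact permutation p = 0.00794 is the smallest that rearranging the libraries, with the pairing of eyes ignored, can give. C4b has a near-identical tandem copy, C4a, whose reads a counting tool may share with it. C4a itself, which passed the filter in 1 condition, differed by 1.43 ± 0.76 (SE) with an adjusted p = 0.317.

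Serping1 lies on chromosome 2 from 84765360 to 84775429, on the minus strand. Its Control values were 0.89 in pool 914/92, 0.20 in 938/88, 0.00 in 976/978 and -0.14 in 981/982. Its ONC values were 2.23 in 913/986, 1.01 in 914/92, 2.09 in 938/88, 2.03 in 976/978 and 1.61 in 981/982. As for C4b the groups did not overlap, and the closest pair was again that of pool 914/92. The difference was 1.56 ± 0.29 (SE), with an adjusted p = 0.0456 and an exact permutation p = 0.0159. Both genes were higher in ONC in 4 of 4 pools, as were 17.9% of all genes, by 0.17 and 0.12 in pool 914/92 and by 2.13 to 2.38 and 1.75 to 2.03 in the other 3.

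These 2 calls were near the threshold. Beside the block, with a variance trend their adjusted p were 0.0723 for both, with quantile normalization 0.285 and 0.193 (differences of 1.14 and 1.03), and each call was also lost in 7 of the 9 fits that left out 1 library (adjusted p up to 0.138 and 0.162), the exceptions being the 2 libraries of pool 914/92. Without that pool the differences were 2.31 and 1.97, with adjusted p of 0.00263 and 0.00439.

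The genes of the C1q chains lie together on chromosome 4, C1qb from 136880145 to 136886177, C1qc from 136889802 to 136892914 and C1qa from 136895916 to 136898844, all on the minus strand. Their 3 products join into the C1q molecule that starts the classical pathway. None of the 3 passed the test over all genes, and all 3 had an unadjusted p under 0.05 (limma), which 8.62% of all genes had in this direction. C1qa had values of 0.12 ± 0.49 (SD, n = 4) in Control and 1.40 ± 0.98 (SD, n = 5) in ONC, a difference of 1.28 ± 0.48 (SE, adjusted p = 0.198). C1qb differed by 1.59 ± 0.57 (SE, adjusted p = 0.186), and C1qc by 1.62 ± 0.58 (SE, adjusted p = 0.186). The folds were 2.43, 3.00 and 3.07. Their exact permutation p were 0.0635, 0.0635 and 0.0476.

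The chains are shown library by library for C1qc. It had 1.32 in Control 914/92, 0.65 in 938/88, 0.00 in 976/978 and -0.13 in 981/982. In ONC it had 3.16 in 913/986, 0.52 in 914/92, 3.31 in 938/88, 1.50 in 976/978 and 1.92 in 981/982. The mean of the 3 chains had the same order of ONC libraries, with 2.71 in 913/986 and 2.96 in 938/88, followed by 1.53 in 981/982, 0.91 in 976/978 and 0.44 in 914/92. The crushed eyes thus fell over a range in which the lowest lay within the controls, at -0.24 to 0.85. Within a library the 3 chains lay within 0.24 to 0.93 of each other. In pool 914/92 all 3 were lower in the ONC eye, by differences of -0.28, -0.15 and -0.80. In the other 3 pools they were higher by 0.81 to 2.83. Without pool 914/92 the differences were 1.73, 2.05 and 2.30, and the adjusted p, at 0.131, 0.123 and 0.0762, still missed the threshold.

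Microglia markers are set beside the C1q chains. Of 15 listed markers, 14 were measured, and their median per library was -0.13 to 0.26 in Control and 0.24 to 1.92 in ONC, with ONC 938/88 and ONC 913/986 highest and ONC 914/92 lowest, as for C1q. None of the 14 passed the test (limma, 9 at an unadjusted p under 0.05, 8 of them higher), and without pool 914/92 Cx3cr1 did (difference 1.55, adjusted p = 0.0488). Their differences ran from -0.70 for Sall1 to 2.64 for Aif1, with 13 above 0 and a median of 1.27. Within the list P2ry12 and Tmem119 differed by 0.33 and 0.05, Fcrls, Cx3cr1, Gpr34 and Selplg by 1.27, 1.28, 1.66 and 1.83, and Trem2 by 2.32. The mean of the C1q chains minus the microglia median was -0.13 to 0.85 in Control and 0.05 to 1.06 in ONC, so the groups overlapped on this measure. Serping1 minus the microglia median was -0.06 to 0.89 in Control and 0.16 to 1.17 in ONC. For C1ra it was -0.23 to 0.99 and 0.07 to 1.27, so lying near that median was not particular to the C1q chains. Markers of other immune cells were higher as well. Of 10 measured markers of macrophages and other phagocytes 3 passed, Cd68 by 3.11, Cd14 by 1.75 and Spp1 by 1.57. Of 4 of other leukocytes 3 passed, Cd52 by 3.46, S100a8 by 3.04 and S100a9 by 2.06. Without pool 914/92, 3 and 1 of these lists passed, namely Cd68, Cd14 and Laptm5, and Cd52. Spp1, S100a8 and S100a9 then missed the threshold (limma, adjusted p = 0.0691, 0.0570 and 0.0640). In bulk RNA more cells of a type and more RNA per cell cannot be told apart, and the part of microglia and other immune cells in the C1q values was not tested.

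**Figure D2:**
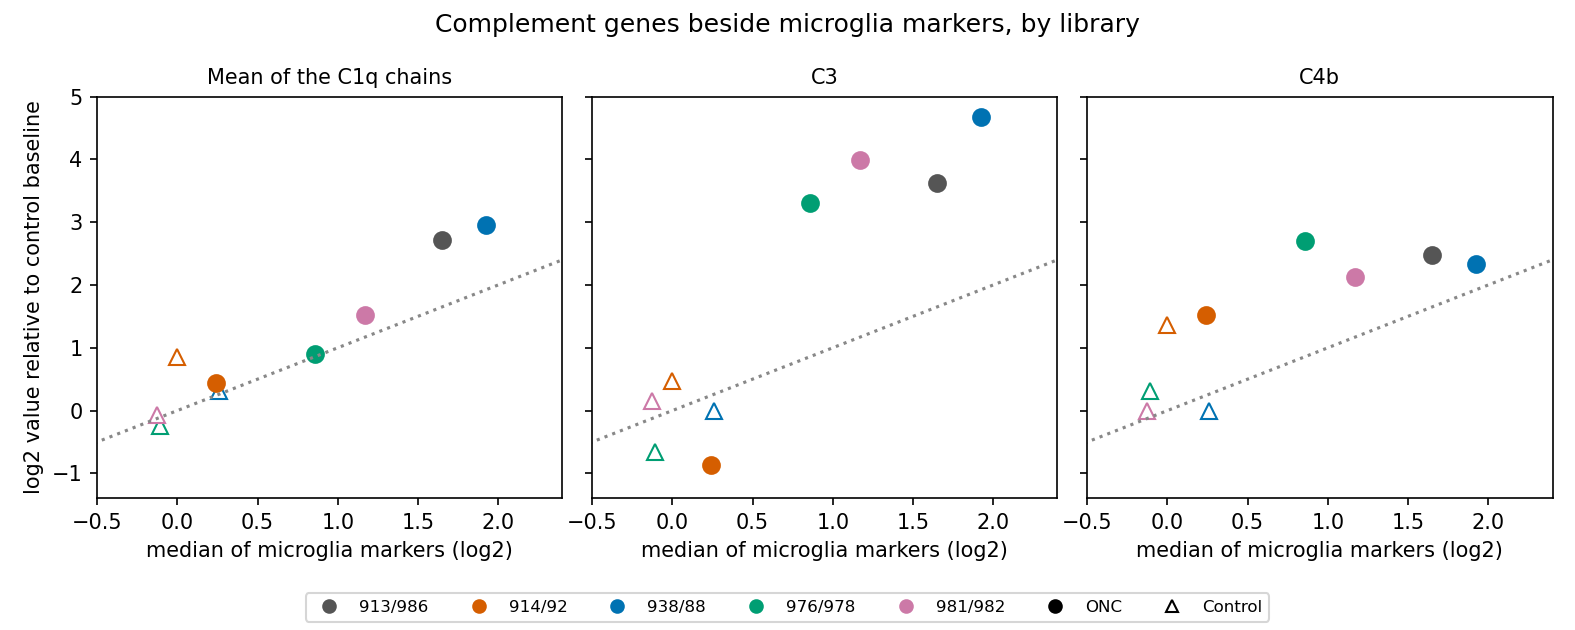
The median log2 value of 14 microglia markers (x axis) is plotted against the mean of the 3 C1q chains, C3 and C4b (y axis, log2) in each library, filled circles for ONC and open triangles for Control, with a dotted line where both are equal. The C1q mean lies within 1.06 of the line in every library, and C3 lies at least 1.97 above it in the 4 ONC libraries other than that of pool 914/92.

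C3, C1s1 and C1ra had the 3 largest fold differences beside C4b, and none passed the test with all 9 libraries. C3, on which all pathways converge, lies on chromosome 17 from 57203973 to 57228136. Its Control values were 0.46 in pool 914/92, 0.00 in 938/88, -0.66 in 976/978 and 0.15 in 981/982. Its ONC values were 3.62 in 913/986, -0.86 in 914/92, 4.68 in 938/88, 3.30 in 976/978 and 3.99 in 981/982. The other 4 ONC libraries lay far above the controls, and ONC 914/92 lay below all of the controls. The difference was 2.96 ± 0.99 (SE), a 7.76-fold level, with an adjusted p = 0.167 and an exact permutation p = 0.0476.

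C1s1, the protease that cleaves C4, lies on chromosome 6 from 124530344 to 124542359 and, like C3, had its lowest ONC value in pool 914/92. Its Control values were 0.30 in pool 914/92, -0.60 in 938/88, -1.14 in 976/978 and 0.00 in 981/982. Its ONC values were 2.77 in 913/986, -0.75 in 914/92, 3.40 in 938/88, 2.56 in 976/978 and 2.56 in 981/982. Of the crushed eyes 4 were clear of the controls, and that of pool 914/92 was within them. The difference was 2.47 ± 0.77 (SE, adjusted p = 0.150). C1ra, which activates C1s, is the neighbouring gene, from 124512621 to 124523440. It had 0.99, 0.02, -0.17 and 0.00 in the controls in the same order, and 2.37, 0.31, 2.71, 2.13 and 2.05 in ONC, again with ONC 914/92 lowest. It differed by 1.70 ± 0.47 (SE, adjusted p = 0.117). C1ra and C1s1 each have a close duplicate in the mouse, C1rb and C1s2, which are not among the genes analysed here, so their reads may be mixed with those of the duplicates.

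Without pool 914/92 C3, C1s1 and C1ra passed the test. The pool was set apart with these values known, and its ONC eye has the lowest ONC value of each, so these fits are a description of the other 7 libraries and no independent test. Their differences were then 4.06, 3.40 and 2.36 and their adjusted p 0.00439, 0.00543 and 0.00275. In all, 5 of 9 members were then called higher, against 0.782% of all genes, and 8 of 9 had no overlap between groups, against 9.60%. Leaving out ONC 914/92 alone gave the same 5 calls in number. With the pool as a block and without pool 914/92, an alternative chosen after the data were seen, C3 passed with an adjusted p = 0.0486 and C1s1 and C1ra did not, at 0.0839 and 0.0659.

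**Figure D3:**
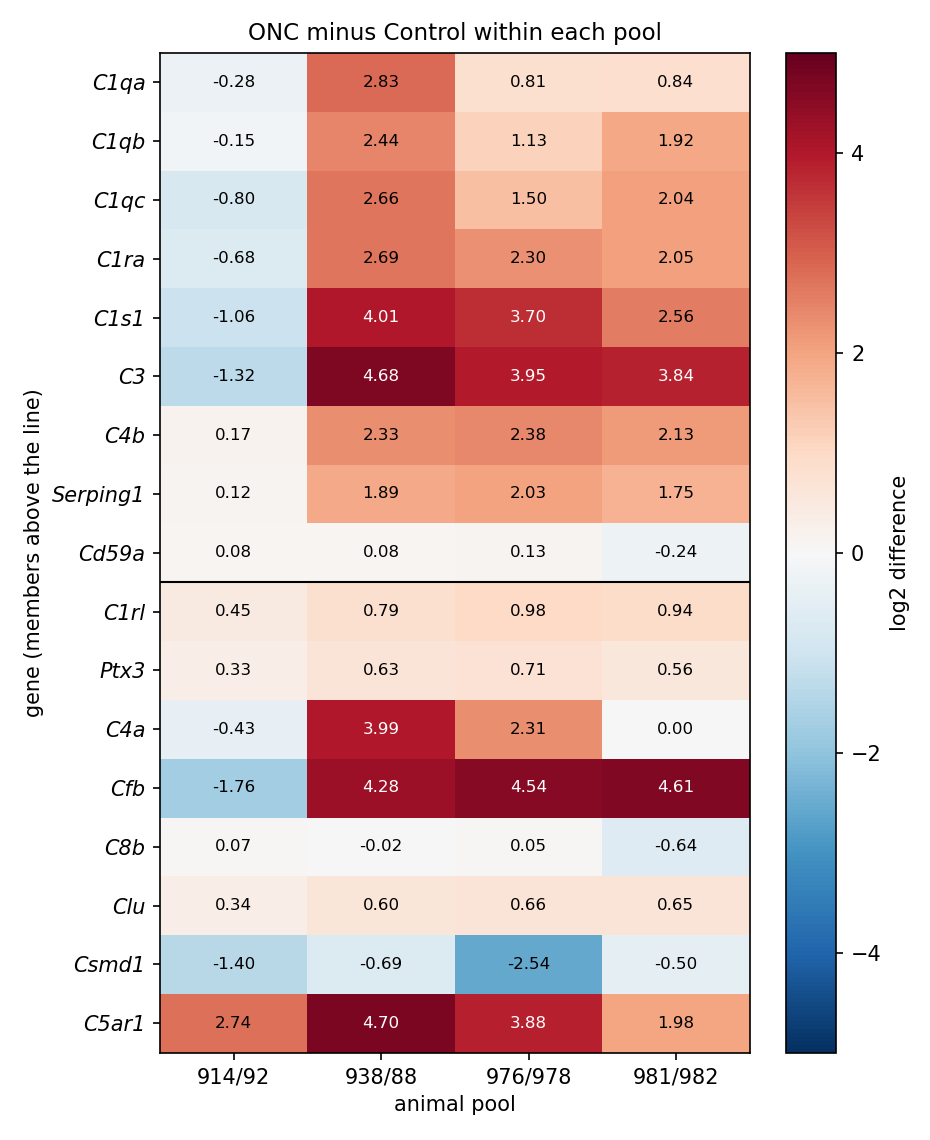
The heat map gives the ONC minus Control difference (log2, colour and printed value) in each of the 4 pools with both eyes, for the 9 members and, under the line, for 8 other complement genes. C3 has -1.32 in pool 914/92 and 3.84 to 4.68 in the other 3, whereas C4b has 0.17 and 2.13 to 2.38.

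The order of the crushed eyes in C4b was not that in the C1q chains. The order in C3 differed from that of the C1q mean only in that 981/982 lay above 913/986. C4b minus the C1q mean was -0.63 in ONC 938/88 and -0.23 in ONC 913/986, the libraries with the highest C1q, while the remaining 3 crushed eyes had 0.60 to 1.79. In Control it was -0.32 to 0.55. For C3 the same subtraction gave -1.30 in ONC 914/92, 0.91 to 2.46 in the 4 remaining ONC libraries and -0.41 to 0.22 in Control. C3 minus the microglia median was 1.97 to 2.82 in those 4 ONC libraries and -0.55 to 0.46 in Control. Serping1 and C4b correlated at r = 0.98 over the 9 libraries. C4b had r = 0.77 with the C1q mean, 0.80 with C3 and 0.92 with C1ra. Serping1 had r = 0.96 with C1ra. C3, C1s1 and C1ra correlated with each other at r = 0.96 to 0.99. With the C1q mean C1ra had r = 0.91, C1s1 0.87, Serping1 0.87 and C3 0.86, each higher than C4b. These correlations describe 9 libraries in 2 groups that share pools. Taken as deviations from the group means, C4b and Serping1 had r = 0.90, C3 and C1s1 0.98, and C1qb and C1qc 0.95. Serping1 had 0.91 with C1ra, so on this measure it lay no closer to C4b than to C1ra. With the 3 C1q chains, C4b had 0.33 to 0.61, C3 0.62 to 0.78 and Serping1 0.66 to 0.86.

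Cd59a, the membrane inhibitor of the lytic pore, had almost the same value in both groups. It lies on chromosome 2 from 104095801 to 104115351. Its Control values were -0.36 in pool 914/92, 0.00 in 938/88, -0.06 in 976/978 and 0.24 in 981/982. Its ONC values were 0.09 in 913/986, -0.28 in 914/92, 0.08 in 938/88, 0.07 in 976/978 and -0.01 in 981/982. The ONC values lay wholly within the range of the controls. The difference was 0.04 ± 0.13 (SE), with a 95% interval of -0.26 to 0.34 and an adjusted p = 0.878. The upper end of that interval is below the lower ends for C4b and Serping1, at 1.08 and 0.90. Its paralog Cd59b, next to it on the chromosome, differed by -0.06 ± 0.19 (SE).

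**Figure D4:**
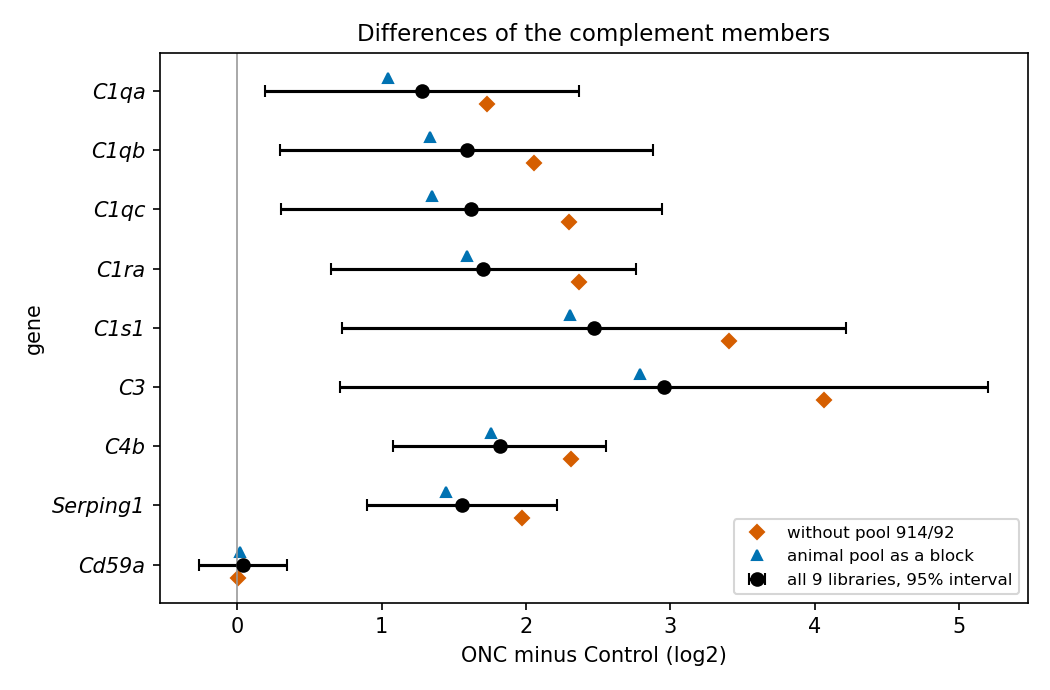
The ONC minus Control difference (log2) of each member is shown for all 9 libraries with its 95% interval (black), with the animal pool as a block (blue triangles) and without pool 914/92 (orange diamonds). C3 moves from 2.96 to 4.06 without that pool, and Cd59a stays between 0.00 and 0.04 in these 3 fits.

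Other genes of the cascade were read from lists by role that hold 59 genes beside the members, of which 31 were measured. Of these 1 passed the threshold as higher and none as lower, and the median difference was 0.05. At an unadjusted p under 0.05, 9 were higher and 5 lower, against 8.62% and 10.9% of all genes. Of the 31, 3 had passed the raw-value filter in 1 condition, C4a, C3ar1 and C5ar1. C3ar1 and C5ar1 are among the 9 higher, so that count is not read as an excess over all genes. The gene past the threshold was C5ar1, the receptor of the anaphylatoxin C5a, with 4.08 ± 0.82 (SD, n = 5) in ONC and 0.60 ± 1.19 (SD, n = 4) in Control (difference 3.49 ± 0.59 SE, adjusted p = 0.0325). Of its 4 controls 3 share the value 0.00 and the fourth, of pool 981/982, had 2.39. It is one of the genes that passed the filter in 1 condition, so a difference was built into its entry to the table, and neither its size nor its call is read as a change. The call was lost with the block (adjusted p = 0.0558), with a variance trend (0.135), with quantile normalization (0.174) and in 6 of 9 fits without 1 library (adjusted p up to 0.119), and held without pool 914/92 (0.0409).

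Cfb, factor B of the alternative pathway, had 4 ONC libraries above all of the controls and ONC 914/92 within them, as C1s1 had. Its ONC values were 4.48 in 913/986, 0.01 in 914/92, 4.96 in 938/88, 3.57 in 976/978 and 4.61 in 981/982, against -0.98 to 1.76 in Control. The difference was 3.16 ± 1.01 (SE, adjusted p = 0.156), and without pool 914/92 it was 4.51 (adjusted p = 0.00754). Cfp, properdin, differed by 0.37 (adjusted p = 0.790). Of the receptors, C3ar1, which binds C3a, and Itgam and Itgb2, which form complement receptor 3 of phagocytes, differed by 2.11, 1.89 and 2.01 (adjusted p = 0.107, 0.0784 and 0.0917). Without pool 914/92 Itgb2 passed, with a difference of 2.34 and an adjusted p = 0.0483, and was 1 of 3 of the 31 that then did, beside Cfb and C5ar1. C3ar1 passed the raw-value filter in 1 condition. These 3 and Cfp are named with their values already known. The microglia and macrophage marker medians were higher beside them, and these receptors are themselves genes of such cells.

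Of the other complement genes in the remaining roles none passed, with or without pool 914/92. Clu, the fluid-phase inhibitor of the lytic pore, differed by 0.61 ± 0.16 (SE, adjusted p = 0.106) and was higher in 4 of 4 pools. C1rl, a C1r-like protease, differed by 0.97 (adjusted p = 0.145), and Ptx3, a pentraxin that binds C1q, by 0.72 (adjusted p = 0.154). Of the terminal pathway 2 of 7 genes were measured, and C8b had the larger difference, -0.33 (adjusted p = 0.624). Of 10 measured membrane regulators, the member Cd59a included, 8 had a difference below 0. The median of the 10 was -0.45, against -0.000623 over all genes. Csmd1, a regulator of neurons, had the largest difference, -1.29 ± 0.46 (SE, adjusted p = 0.185). Markers of retinal ganglion cells were lower beside these, with a median difference of -0.94 and 6 of 11 passing, and their part was not tested.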

How the data were processed

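Libraries were grouped by the treatment label, and pools come from the animal numbers. Per the file headers the deposited values are normalized, use RefSeq gene models and kept genes whose raw values ran from 5 to 298892.188 in 100% of a condition's libraries, for 1 condition or both. No header names the scale. The deposited values were taken as log2 against a control baseline of each gene, since 13230 of 14194 genes have exactly 1 control library at 0 and values below 0 occur. The submitters' processing notes name mm10 and DESeq without a version. For the aligner, counter and strandedness the labels and headers have no entry (not given in the sources used here). How many conditions a gene passed is another deposited column, read as a score of 1 or 2.

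ONC was compared with Control over all genes by limma 3.58.1 (R 4.3.3) without a variance trend, two-sided, with Benjamini-Hochberg adjustment over all 14194 genes and a threshold of 0.05. A trend was left out because it would follow the mean of values that carry no level, and so the difference under test. It is given as an alternative. On simulated data for ONC against Control over 14194 genes this fit called 67.6% of genes changed by 1 and 96.6% of those changed by 3 on the log2 scale, with 0.0657% of unchanged genes. With the block it called 40.6% and 90.6%. The simulated libraries were drawn independently, with no pool effect and no outlying library. They therefore cannot show how the fits with and without the block compare on paired eyes. Permutation tests are exact and two-sided, and they rearrange the labels of all 9 libraries without regard to pools. The eyes of a pool come from the same animals, which pairs them. The correlation of their deviations from the group means over all genes was 0.43, 0.18, -0.09 and 0.40 in pools 914/92, 938/88, 976/978 and 981/982. No pair of libraries shared more than 0.0564% of its values, so none was a duplicate. Lists were matched by Entrez ID through a RefSeq table of GRCm38.p6, which held 14171 of the 14194 entries and was used for names, and promoter windows came from RefSeq as well. The promoter windows were limited to the bases before the start after a first motif search over 50 further bases had been seen, which removed 3 matches in C1ra. Other complement genes were named if past the threshold or with the largest absolute difference of their role. The members, lists, tests and the omission of the trend were chosen with earlier results of these data known.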

Additional observations from a re-analysis of the deposited data

Results flagged for a closer look

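In 7 of 34 groups of libraries tested (9 members and 8 other complement genes, 4 or 5 libraries each), 1 library was far from the others by Dixon's ratio. About 5% of groups are picked out by chance alone, and the groups share libraries and are not independent. Of the 7, 5 were in ONC 914/92, where the value was lowest: C3 at -0.86 (other ONC libraries 3.30 to 4.68), C1s1 at -0.75 (2.56 to 3.40), C1ra at 0.31 (2.05 to 2.71), Cfb at 0.0074 (3.57 to 4.96) and Cd59a at -0.28 (-0.01 to 0.09). C1ra was high in Control 914/92, at 0.99 (other controls -0.17 to 0.02), and C5ar1 in Control 981/982, at 2.39 (all others at 0.00).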

How the results depend on the processing

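With all 9 libraries 165 genes and 2 members, C4b and Serping1, were called. With the animal pool as a replicate block 129 genes and 0 members were called (limma, 5 members at an unadjusted p under 0.05), with the same numbers when ONC 913/986 was left out of that paired fit. A variance trend gave 50 genes and 0 members (8 at an unadjusted p under 0.05), trend and block together 0 genes (3574 at an unadjusted p under 0.05) and 0 members (6), quantile normalization 30 genes and 0 members (6), and robust empirical Bayes 1 member, C4b. The 13555 genes past the raw-value filter in both conditions gave 102 calls, 36 of them higher, against 73 higher in the main fit. The 639 genes left out had passed in 1 condition. Leaving out 1 library gave 62 to 234 genes and 0 to 5 members. Without pool 914/92 there were 5 members, and with the block as well, an alternative added after the data were seen, 20 genes and 3 members. The cause of these changes was not tested. Over 171 refits of single members 137 kept direction and side of the threshold, 25 lost a call, 7 gained one and 2 changed sign, both for Cd59a: -0.064 without Control 914/92 (-0.064 to 0.133 without 1 library) and -0.0079 with the block and without pool 914/92. Without pool 914/92 the block also ended the calls of C1ra and C1s1. Depth is unknown, so no limit of detection can be given.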

Other observations

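Outside the cascade, the 5 genes whose values followed the mean of the C1q chains most closely over the 9 libraries were Mpeg1, the perforin-like gene of macrophages (r = 0.97), Lyz2, the lysozyme of myeloid cells (0.96), Cyth4 (0.96), Unc93b1, which escorts Toll-like receptors (0.96), and H2-Eb1, a class II antigen presentation chain (0.96). Their ONC minus Control differences were 1.87, 2.09, 1.68, 1.38 and 2.14. The 5 that followed C4b most closely were Tapbp, a chaperone of class I antigen presentation (r = 0.97), Serpina3n, an acute-phase protease inhibitor of reactive astroglia (0.97), Jak3 (0.97), Ifitm3, an interferon-induced membrane protein (0.97), and Anln (0.96). Their differences were 0.51, 2.26, 1.35, 1.53 and 0.44. No gene stands in both sets of 5. The genes were picked for likeness over libraries that share groups and pools, and a difference of the same sign is built into that choice, so neither the correlations nor the differences carry a p.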
